A study of Mus musculus with 8 samples.

Results

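Interferon-stimulated genes are the genes that a cell switches on when it senses an interferon. A list of 33 such genes was followed across neurosphere cultures that differed in the deacetylase gene Sirt1 or in exposure to resveratrol, a plant polyphenol widely used as a SIRT1 activator. The genes were chosen by name, with earlier results of these data known, and their probes were found through the transcript accession of each probe. Of the 33 genes, 30 had a named probe, and 23 of those entered the tests among 13332 genes in all, because both arrays of some group read above background. The probes of the other 7 (Ifi44, Ifit1, Irf7, Oas1a, Oas2, Oas3 and Oasl2) stayed below that limit, and Mx1, Mx2 and Dtx3l are named only. RNA had been hybridised to 8 one-colour Agilent arrays, 1 for each sample, from secondary neurospheres, which are floating balls of dividing neural stem and progenitor cells grown from the hippocampus of mice aged 7 to 9 weeks. The resveratrol group (n = 2) was C57BL/6 wild type, male, grown for 5 days and then given 10 mm resveratrol for 24 hours, with the unit as the label writes it. The DMSO group (n = 2) was C57BL/6 wild type, male, and received only the solvent over the same 24 hours. The Sirt1 KO group (n = 2) carried the Sirt1 knockout on a 129/ICR background and was grown for 6 days with no agent. The WT group (n = 2) was its 129/ICR wild-type counterpart. In both genotype groups replicate 1 was female and replicate 2 male. The labels give no design of the deletion, no driver line, and no statement on how many animals or cultures lay behind each sample, so each p-value reflects the spread of these arrays, which may be technical.

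Interferons bind receptors that activate the JAK kinases, and these phosphorylate transcription factors such as STAT2. A complex that contains STAT2 and IRF9 binds the interferon-stimulated response element in target promoters and raises a set of antiviral genes, which includes sensors of viral RNA, enzymes that block translation, membrane proteins that stop viral entry or release, and feedback inhibitors. Stem and progenitor cells are known to keep some of these genes on without any infection.

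The response element itself is shown in 4 members whose values carry the comparisons below. Sequences are RefSeq promoter windows on build GRCm38.p6, 5′ to 3′ on the strand of the gene, and hold 250 bases before and 50 after the start. Capitals mark every match to GAAANNGAAA or its reverse complement TTTCNNTTTC, the core of the response element, on either strand with overlapping matches joined.
Isg15 promoter, chr4:156200769-156201068, minus strand: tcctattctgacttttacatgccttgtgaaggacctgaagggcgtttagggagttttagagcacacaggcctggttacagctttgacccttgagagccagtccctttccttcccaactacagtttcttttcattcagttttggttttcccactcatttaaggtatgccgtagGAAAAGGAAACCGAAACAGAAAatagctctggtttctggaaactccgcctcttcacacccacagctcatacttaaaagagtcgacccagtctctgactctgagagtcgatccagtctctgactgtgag
Ifitm3 promoter, chr7:141010695-141010994, minus strand: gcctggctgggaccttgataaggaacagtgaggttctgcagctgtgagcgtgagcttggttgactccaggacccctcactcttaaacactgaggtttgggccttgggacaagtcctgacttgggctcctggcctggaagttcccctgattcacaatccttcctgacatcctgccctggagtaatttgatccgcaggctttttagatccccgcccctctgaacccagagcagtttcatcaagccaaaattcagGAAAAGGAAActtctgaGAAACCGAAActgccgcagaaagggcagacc
Bst2 promoter, chr8:71537423-71537722, minus strand: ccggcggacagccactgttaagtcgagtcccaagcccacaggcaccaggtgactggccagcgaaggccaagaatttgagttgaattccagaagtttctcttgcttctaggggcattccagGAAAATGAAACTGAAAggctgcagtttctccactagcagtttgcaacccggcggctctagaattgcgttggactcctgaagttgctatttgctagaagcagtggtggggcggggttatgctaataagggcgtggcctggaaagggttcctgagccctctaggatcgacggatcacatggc
Rsad2 promoter, chr12:26456403-26456702, minus strand: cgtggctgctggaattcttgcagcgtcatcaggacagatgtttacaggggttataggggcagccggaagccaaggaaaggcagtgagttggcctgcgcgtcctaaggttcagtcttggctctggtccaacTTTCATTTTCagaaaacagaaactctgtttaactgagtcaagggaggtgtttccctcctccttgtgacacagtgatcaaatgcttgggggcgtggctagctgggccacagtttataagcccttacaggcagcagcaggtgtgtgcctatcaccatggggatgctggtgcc

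Isg15 held 3 overlapping matches, the first at base -78 from the start, and Bst2 held 2 overlapping ones from base -130. Ifitm3 held 2 separate matches just past its start, at bases 3 and 20, and Rsad2 held 1 match on the opposite strand at base -120. A promoter window was found for 25 of the 33 genes, and 14 of these 25 genes (56%) held the motif, against 1079 of 27025 genes with a window in the same table (3.99%). A match is a description of letters and not of a bound site.

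All levels below are log2 of the background-corrected signal relative to the 75th percentile of the same array, so they compare arrays for 1 probe and not 1 gene with another. The 75th percentile of the signal was 716 to 872 units on the replicate 1 arrays and 249 to 377 units on the replicate 2 arrays. Between 53.1% and 72.0% of probes were well above background. The replicate number thus marks the signal strength of an array in all 4 groups. Arrays lay on 3 slides. Resveratrol 1 shared a slide with DMSO 1 and WT 1, resveratrol 2 shared one with DMSO 2 and Sirt1 KO 1, and Sirt1 KO 2 shared the third with WT 2. The pair differences below therefore set each resveratrol array against the DMSO array of its own slide. The main test used 4 group means, so its p-values and SEs leave out that pairing unless a block is named. The chosen Sirt1 probe read 0.42 and -0.07 on the Sirt1 KO arrays, against 0.16 and 0.17 on the WT arrays. The second Sirt1 probe read -1.01 and -1.92 on the Sirt1 KO arrays, against -1.34 and -0.99 on the WT arrays. Neither probe separated the groups. The sources used here do not say which exons were deleted, so these probes check nothing about the genotype, and the groups are named as labelled. Neural stem and progenitor markers were tested in full, 10 of 10. Of 13 microglia and macrophage markers with a probe, 9 were above background on no array, among them Aif1, C1qa, Cx3cr1, Itgam and Ptprc. The summed signal of the microglial list, relative to the 75th percentile, was 0.308 to 0.541 on resveratrol arrays, 0.321 to 0.430 on DMSO arrays, 0.250 to 0.751 on Sirt1 KO arrays and 0.356 to 0.752 on WT arrays. Markers of other cell types also differed between groups. Of 9 tested oligodendrocyte lineage markers 7 were lower in both replicate numbers after resveratrol, against 33.03% of all genes. The summed signal of that list was 156 and 166 on resveratrol arrays, against 171 and 213 on DMSO arrays. Of 10 neural stem and progenitor markers 6 were lower in both, against 33.03%, and 3 higher, against 35.5%. Their sums were 415 and 672 on resveratrol arrays, against 419 and 633 on DMSO arrays. Of 6 tested astrocyte markers 4 were higher in both replicate numbers in Sirt1 KO, against 23.6% of all genes. The astrocyte sums were 130 and 194 on Sirt1 KO arrays, against 69.5 and 112 on WT arrays. The part of these markers in the results below was not tested. In such bulk cultures, fewer cells of a type and less RNA per cell cannot be told apart.

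Resveratrol against DMSO. Most tested interferon-stimulated genes read higher after 24 hours of resveratrol, and the larger differences included the antiviral genes Rsad2 and Ifitm3, the feedback gene Usp18, Ifi35 and the guanylate-binding protein gene Gbp2, at 1.04 to 1.18 on the log2 scale. Of the 23 tested members, 19 were higher in both replicate numbers, against 35.5% of all genes, and 2 (Stat2 and Ifit2) were lower in both, against 33.03%. Both resveratrol arrays stood above both DMSO arrays for 14 of the 23, against 10.2% of all genes, and below both for 0 of the 23, against 8.84%. Oasl1 is counted in the 19 and the 14, although it entered the tests through the resveratrol group alone. Without Oasl1, Isg15 and Xaf1, 17 of 20 members were higher in both replicate numbers and 2 lower, and 12 of 20 stood above both DMSO arrays. The members were chosen with earlier results of these data known, so these counts are descriptive. The median difference over the 23 was 0.63 on the log2 scale, and over all 13332 genes it was 0.01. Over the 30 members with a probe and no filter on signal, 23 were higher in both replicate numbers, against 38.5% of all genes without that filter. Both resveratrol arrays stood above both DMSO arrays for 16 of the 30, against 9.17%, and the median was 0.60. With normexp background correction the median over the tested members was 0.38, and over all genes 0.03. Under that setting Rsad2 differed by 0.67, Usp18 by 0.60, Ifi35 by 0.55, Gbp2 by 0.68, Oasl1 and Ifih1 by 0.38 each, Parp14 by 0.40, Isg15 by 0.31 and Ifit3 by 0.30. Of the 7 genes whose probes stayed out of the tests, Oasl2 was above background on the resveratrol 1 and DMSO 1 arrays, Ifit1 and Irf7 on 1 array each, and the other four on none. Oasl2, an oligoadenylate synthase-like protein, read -4.27 and -4.28 on the resveratrol arrays, against -4.99 and -5.11 on the DMSO arrays.

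No single member passed limma's test at an adjusted p of 0.05. That test called 0 of the 13332 genes (0.0%). At an unadjusted p under 0.05 it held 201 genes, of which 2 were members (Rsad2 and Gbp2). With the replicate number, which is here the slide, as a block within each arm, 38 genes were called higher (0.285%), and 1 of them was a member, Ifitm3. With the 3 slides as a block over all arrays, no gene and no member was called. The replicate 2 pair gave the larger difference for 20 of the 23 members. Its median was 0.80, against 0.28 for the replicate 1 pair. Without the resveratrol 2 array the median of the 23 members was 0.30, and without resveratrol 1 it was 0.96.

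**Figure D1:**
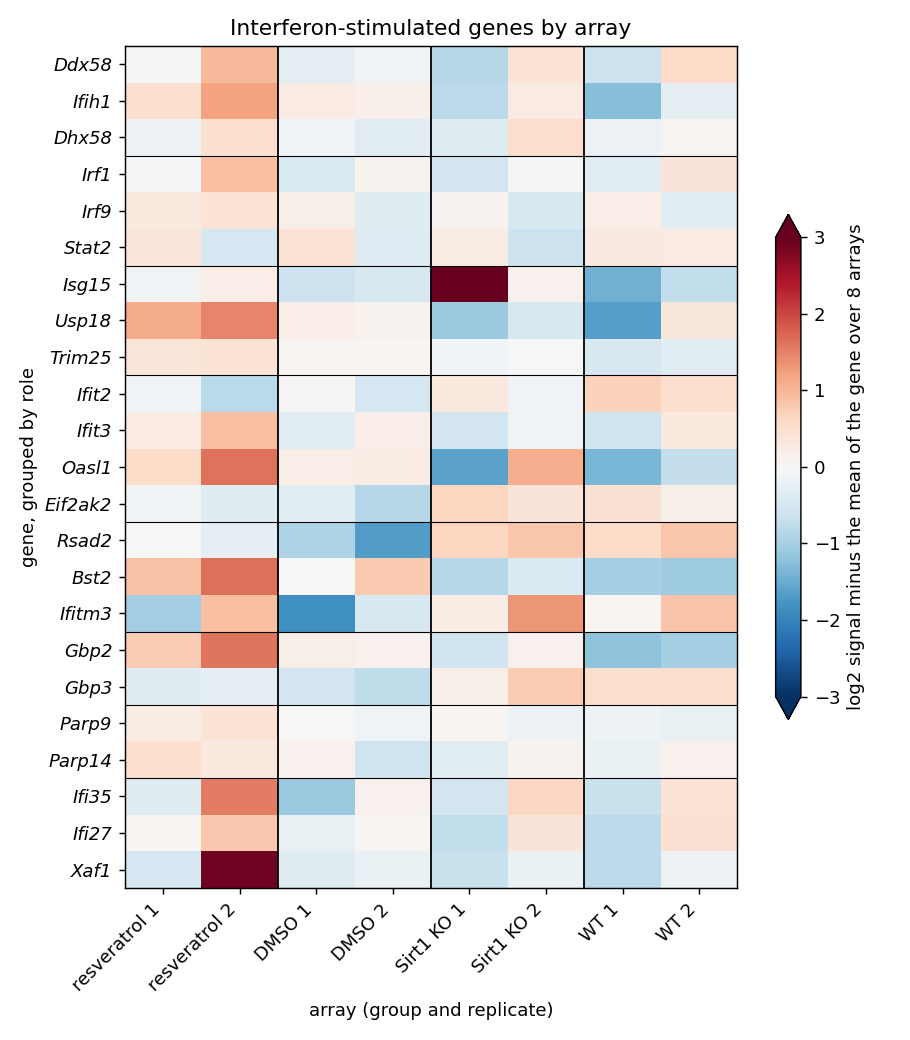
Heat map of the 23 tested members, in rows grouped by role, on the 8 arrays in columns. Colour gives the log2 signal of an array minus the mean of that gene over 8 arrays, with red above and blue below. The resveratrol 2 column is red for most rows, Isg15 is darkest on Sirt1 KO 1 and Xaf1 on resveratrol 2.

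The genes of membrane-associated antiviral proteins read higher in each pair. Ifitm3, which blocks the fusion of virus with endosomes, read 0.62 and 2.56 on the resveratrol arrays, against -0.19 and 1.17 on the DMSO arrays. The ranges of the groups overlapped, with both replicate 2 arrays high, and each resveratrol array stood above the DMSO array of its slide, by 0.82 and 1.38. Ifitm3 differed by 1.10 (SE 0.77, 2.14-fold), and its adjusted p by limma was 0.0484 with the replicate block (SE 0.16). That call was lost when the block was combined with quantile normalization (adjusted p = 0.0595), with the deposited value table (0.0627) or with the mean of the probes (0.0902), and was kept with median centring (0.0422). With the slide block the limma adjusted p was 1. Bst2, or tetherin, holds budding virus at the cell surface. It read -0.0016 and 0.76 on the resveratrol arrays, against -0.89 and -0.10 on the DMSO arrays. Both resveratrol arrays stood above both DMSO arrays. The pairs differed by 0.89 and 0.85, with a mean of 0.87 (SE 0.38) and a limma adjusted p of 0.0927 with the replicate block. Rsad2, or viperin, is a radical enzyme of the endoplasmic reticulum that makes a chain-terminating nucleotide. It read -2.10 and -2.39 on the resveratrol arrays, against -3.06 and -3.79 on the DMSO arrays, with no overlap. Its difference was 1.18 (SE 0.34, 2.26-fold), with an unadjusted p of 0.0109 and a limma adjusted p of 0.0717 with the replicate block. A second Rsad2 probe differed by 0.84 in the same direction.

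The ISG15 system tags proteins with the ubiquitin-like ISG15, and USP18 removes the tag and damps the receptor. Usp18 read -2.85 and -2.50 on the resveratrol arrays, against -3.76 and -3.85 on the DMSO arrays. The groups were well apart, with a difference of 1.13 (SE 0.68, 2.19-fold) and limma adjusted p of 1 and, with the replicate block, 0.271. Isg15 read -3.85 and -3.53 on the resveratrol arrays, against -4.35 and -4.22 on the DMSO arrays. Both resveratrol arrays were higher, by 0.50 and 0.69 within their slides. Trim25, the ubiquitin ligase that activates RIG-I, was higher by 0.32.

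Among RNA sensors, Ddx58, which encodes RIG-I, read -0.89 and 0.13 on the resveratrol arrays, against -1.11 and -0.94 on the DMSO arrays. Ifih1, which encodes MDA5, read -3.47 and -2.74 on the resveratrol arrays, against -3.69 and -3.80 on the DMSO arrays. Neither gene overlapped between the groups, and the differences were 0.65 (SE 0.59) for Ddx58 and 0.64 (SE 0.56) for Ifih1. In both genes the replicate 1 pair differed by 0.22 and the replicate 2 pair by over 1, so the second slide carried most of the difference. Dhx58, the regulator LGP2, differed by -0.11 and 0.80 in the pairs. Of the transcription factors, Irf1, which is itself induced and drives a second wave, read 0.79 and 1.72 on the resveratrol arrays, against 0.35 and 0.92 on the DMSO arrays. The ranges overlapped, and the pairs differed by 0.43 and 0.80. Irf9, the DNA-binding partner of STAT2, was higher by 0.43 and stood apart from DMSO in both arrays. Stat2 differed by -0.11.

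RNA-binding effectors went in both directions. Ifit2 and Ifit3 belong to a family with members that bind foreign RNA and block its translation. Ifit3 read -4.05 and -3.40 on the resveratrol arrays, against -4.62 and -4.08 on the DMSO arrays, and the groups did not overlap. Ifit2 read -1.29 and -2.0 on the resveratrol arrays, against -1.17 and -1.71 on the DMSO arrays. Ifit3 thus differed by 0.63 and Ifit2 by -0.21. Eif2ak2, the RNA-activated kinase PKR that stops translation, read -1.52 and -1.81 on the resveratrol arrays, against -1.77 and -2.30 on the DMSO arrays. The ranges overlapped, and the mean difference was 0.37. Oasl1, an inactive relative of the oligoadenylate synthases that restrains Irf7 translation in mice, read -4.87 and -3.78 on the resveratrol arrays, against -5.21 and -5.19 on the DMSO arrays. It was above background on 2 of 2 resveratrol arrays and 1 of 2 DMSO arrays, and it entered the tests through the resveratrol group alone.

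Gbp2, a guanylate-binding GTPase that attacks the vacuoles of intracellular parasites, read -2.23 and -1.40 on the resveratrol arrays, against -2.82 and -2.88 on the DMSO arrays. The arrays did not overlap, and the difference was 1.04 (SE 0.42, 2.05-fold) with an unadjusted p of 0.0441. Gbp3, a GTPase of the same family, read 0.41 and 0.49 on the resveratrol arrays, against 0.21 and 0.02 on the DMSO arrays, a difference of 0.34. Parp14, a mono-ADP-ribosyltransferase, read -2.90 and -3.12 on the resveratrol arrays, against -3.27 and -4.01 on the DMSO arrays, and its difference was 0.63 (SE 0.40) without overlap. Parp9, its inactive partner, was higher by 0.39. Ifi35 read -3.69 and -1.78 on the resveratrol arrays, against -4.43 and -3.19 on the DMSO arrays. The ranges overlapped, and the pairs differed by 0.74 and 1.41. Ifi27, a small mitochondrial and nuclear-envelope protein, read 4.14 and 4.90 on the resveratrol arrays, against 3.87 and 4.15 on the DMSO arrays, a difference of 0.52.

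Xaf1, a pro-apoptotic antagonist of XIAP, was singled out after its values were seen because 1 array set its mean. It read -3.58 and -0.14 on the resveratrol arrays, against -3.43 and -3.25 on the DMSO arrays. The resveratrol 2 array alone was high, and the pairs differed by -0.15 and 3.11, with a mean of 1.48 (SE 1.0). Its processed signal was 260 units on resveratrol 2 and 26.8 to 69.4 units on the remaining arrays, from 1 spot without an outlier flag. Over all genes 26 had a replicate 2 difference at least as large. Of the other 22 members, 8 differed by over 1 in that pair. Without Xaf1, Isg15 and Oasl1 the median over 20 members was 0.62.

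**Figure D2:**
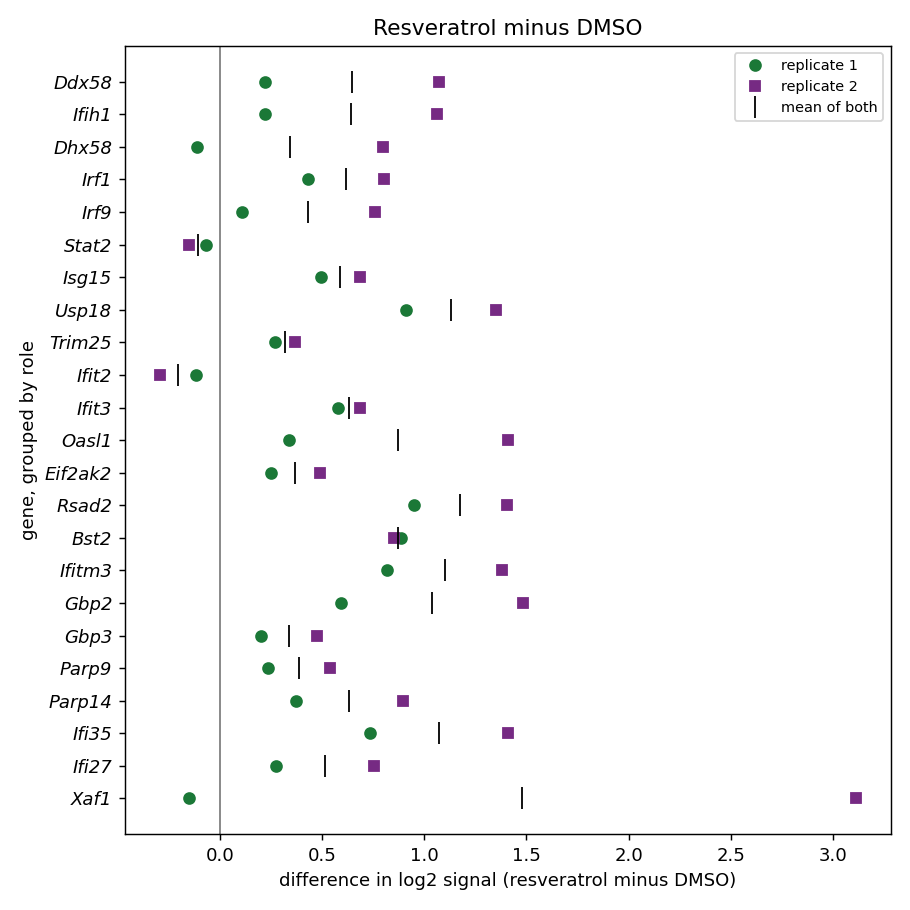
Difference in log2 signal, resveratrol minus DMSO, for each of the 23 tested members. Circles give the replicate 1 pair, squares the replicate 2 pair, both within a slide, and bars their mean. Most circles and squares lie right of 0, the squares farther out, with Xaf1 at 3.11 in replicate 2 and -0.15 in replicate 1.

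Sirt1 KO against WT. The tested interferon-stimulated genes showed no common direction in the knockout cultures, and Isg15 on 1 array gave the largest difference. Of the 23 tested members, 9 were higher in both replicate numbers, against 23.6% of all genes, and 6 were lower in both, against 32.5%. Both Sirt1 KO arrays stood above both WT arrays for 4 members (Isg15, Trim25, Bst2 and Gbp2), against 7.66% of genes, and below both for 2 (Stat2 and Ifit2), against 7.39%. The median difference was 0.04 over the members and -0.03 over all genes. Over the 30 members without the filter on signal the median was -0.06, and over the tested members with normexp it was -0.42. Its sign turned on single arrays, at 0.27 without Sirt1 KO 1, -0.25 without Sirt1 KO 2, -0.10 without WT 1 and 0.35 without WT 2. Limma called 0 genes (0.0%), with 160 at an unadjusted p under 0.05, of which 1 (Isg15) was a member, and with the replicate block it called 21 genes (0.158%), none of them a member. Replicate 1 of the 2 genotypes lay on different slides, so slide and genotype cannot be told apart in that pair, while replicate 2 shared a slide.

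Isg15 read -0.68 and -3.61 on the Sirt1 KO arrays, against -5.19 and -4.49 on the WT arrays. Both knockout arrays were higher, and Sirt1 KO 1 stood far above every other array. The pairs differed by 4.52 (22.9-fold) and 0.88 (1.84-fold), with a mean of 2.70 (SE 0.89), an unadjusted p of 0.0199, and limma adjusted p of 1 and, with the replicate block, 0.176. With normexp background correction the pairs differed by 0.93 and -0.84, and the mean was 0.045. WT 2 was not above background for this probe. The processed signal was 546 units on Sirt1 KO 1 and 11.1 to 49.5 units on the remaining arrays, from 1 spot without an outlier flag. Over all genes 3 had a replicate 1 difference at least as large. The other 22 members had a median of 0.06 in that pair, with a range of -0.41 to 0.60, and 0 of them differed by over 1.

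Gbp2 read -3.61 and -2.87 on the Sirt1 KO arrays, against -4.21 and -3.99 on the WT arrays. It was higher in both pairs, by 0.60 and 1.13, with a mean of 0.87 (SE 0.42), or -0.70 with normexp, and WT 2 was not above background. Bst2 read -1.75 and -1.31 on the Sirt1 KO arrays, against -1.88 and -1.95 on the WT arrays, a difference of 0.38 without overlap. With normexp the sign of Bst2 turned, and its pairs differed by -0.50 and -0.20. Ifih1 read -4.73 and -3.69 on the Sirt1 KO arrays, against -5.24 and -4.25 on the WT arrays. Its ranges overlapped, and the pairs differed by 0.51 and 0.55, but the mean turned to -1.07 with normexp, and WT 2 was not above background. Ifit2 read -0.91 and -1.29 on the Sirt1 KO arrays, against -0.50 and -0.69 on the WT arrays. It was lower on both, by 0.41 and 0.60, a mean of -0.51 (SE 0.34). Usp18 read -5.07 and -4.44 on the Sirt1 KO arrays, against -5.63 and -3.62 on the WT arrays, and its pairs differed in sign, with Sirt1 KO 2 not above background.

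The other members read on every array overlapped between the genotypes. Rsad2 read -1.49 and -1.29 on the Sirt1 KO arrays, against -1.58 and -1.28 on the WT arrays. Ifi27 read 3.35 and 4.49 on the Sirt1 KO arrays, against 3.31 and 4.56 on the WT arrays. Both genes differed by under 0.1 in each pair. With normexp the pairs differed by -0.39 and -0.29 for Rsad2, and by 0.37 and 0.32 for Ifi27. Ifitm3 read 1.87 and 2.97 on the Sirt1 KO arrays, against 1.71 and 2.52 on the WT arrays, with overlap and a mean difference of 0.30. Irf1 read 0.27 and 0.77 on the Sirt1 KO arrays, against 0.50 and 1.20 on the WT arrays, and Ddx58 read -1.68 and -0.41 on the Sirt1 KO arrays, against -1.46 and -0.25 on the WT arrays. Both overlapped, and both were lower in each pair. Of 2 further tested Ddx58 probes, 1 had the opposite sign here. Eif2ak2 read -0.79 and -1.05 on the Sirt1 KO arrays, against -0.97 and -1.26 on the WT arrays, and Gbp3 read 0.96 and 1.54 on the Sirt1 KO arrays, against 1.30 and 1.29 on the WT arrays. The differences were 0.20 for Eif2ak2 and -0.04 for Gbp3. Parp14 read -3.75 and -3.31 on the Sirt1 KO arrays, against -3.62 and -3.28 on the WT arrays. Ifi35 read -3.87 and -2.71 on the Sirt1 KO arrays, against -3.98 and -2.92 on the WT arrays. Neither separated the genotypes. With normexp the pairs differed by -1.23 and -0.72 for Parp14, and by -1.2 and -0.67 for Ifi35. Ifit3 read -4.86 and -4.40 on the Sirt1 KO arrays, against -4.89 and -4.01 on the WT arrays, above background on 1 array of each group. Oasl1 read -7.03 and -4.32 on the Sirt1 KO arrays, against -6.78 and -6.14 on the WT arrays. It was above background on 1 Sirt1 KO array and no WT array, so no fold is given.

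**Figure D3:**
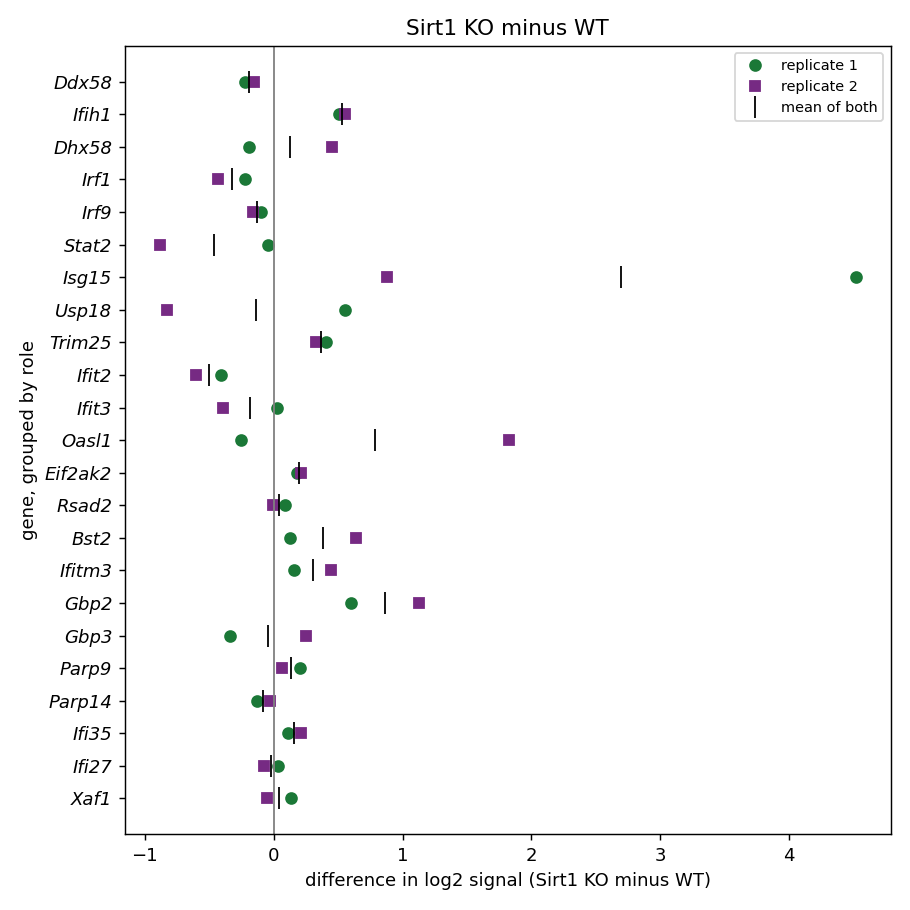
Difference in log2 signal, Sirt1 KO minus WT, for each of the 23 tested members. Circles give the replicate 1 pair (female), squares the replicate 2 pair (male) and bars their mean. Points scatter on both sides of 0, and the Isg15 circle stands alone at 4.52.

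The difference between the differences, resveratrol minus DMSO less Sirt1 KO minus WT, was tested directly. Limma called 0 genes (0.0%), with 126 at an unadjusted p under 0.05 and 0 members among them, and with the replicate block 31 genes (0.233%), none of them a member. Among the members Rsad2 differed by 1.14 (SE 0.48) and Isg15 by -2.11 (SE 1.26) in this contrast.

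DMSO against WT. These groups differ in strain (C57BL/6 against 129/ICR), in the solvent and in the culture scheme. Replicate 1 also differs in sex, and replicate 2 in slide and scan day, and all of these cannot be told apart. The control levels of several interferon-stimulated genes lay far apart, in both directions. The median difference was -0.03 over the 23 members and -0.02 over all genes, and with normexp -0.92 over the members. The member median was 0.07 without DMSO 1, 0.11 without DMSO 2, -0.28 without WT 1 and 0.17 without WT 2. Both DMSO arrays stood above both WT arrays for 7 of the 23 members, against 12.9% of genes, and below both for 5, against 13.4%. Limma called 10 genes (0.075%), none of them a member. With the replicate block it called 2 members higher (Bst2 and Gbp2), against 5.24% of genes, and 5 lower (Rsad2, Ifitm3, Gbp3, Eif2ak2 and Ifit2), against 5.73%. That block takes the spread between replicates of an arm out of the error, although this comparison runs across arms. With the slides as a block no member was called. Rsad2 was lower on DMSO arrays with pair differences of -1.48 and -2.51 and a mean of -1.99 (SE 0.34, 3.99-fold lower), with a limma adjusted p of 0.169. A second Rsad2 probe differed by -0.87. Ifitm3 differed by -1.62 (SE 0.77), Gbp3 by -1.18 (SE 0.25), Eif2ak2 by -0.92 and Ifit2 by -0.85. Bst2 differed by 1.42 (SE 0.38), or 0.43 with normexp, and Gbp2 by 1.25 (SE 0.42), or -0.51 with normexp. Resveratrol minus DMSO and DMSO minus WT share the DMSO arrays.

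**Figure D4:**
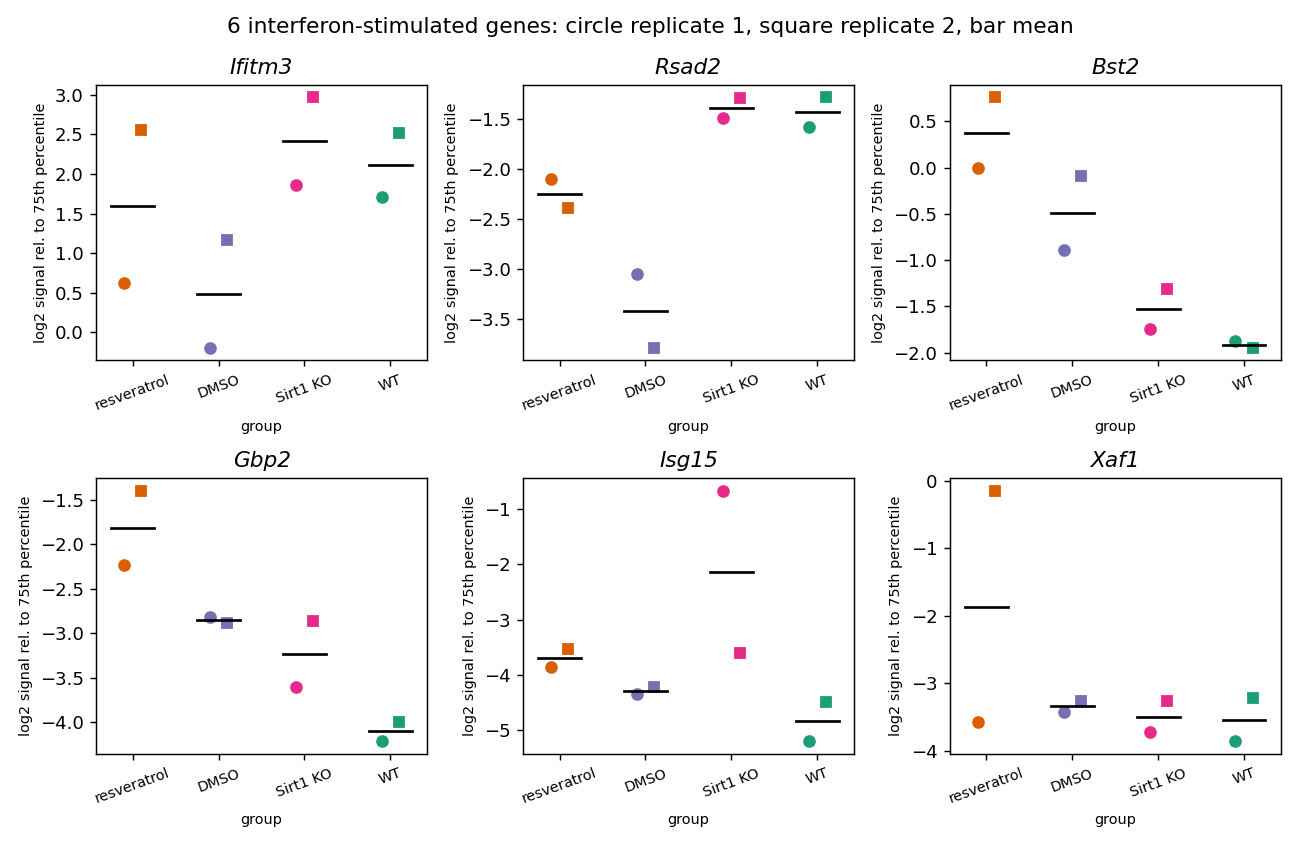
Log2 signal relative to the 75th percentile of the array for Ifitm3, Rsad2, Bst2, Gbp2, Isg15 and Xaf1 in the 4 groups. Circles are replicate 1, squares replicate 2 and bars the mean of both. Rsad2 is lowest on DMSO arrays (-3.06 and -3.79), Bst2 lowest on WT arrays (-1.88 and -1.95), and Isg15 and Xaf1 each have 1 array far from the rest.

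The wider pathway was read from 4 further lists, which were also chosen with earlier results of these data known. Of the 16 genes for interferon ligands, receptors and JAK kinases, 10 were tested. After resveratrol 7 of them were higher in both replicate numbers, against 35.5% of all genes, and 2 lower, against 33.03%. The median was 0.19. Ifngr2, a chain of the interferon gamma receptor, read 2.07 and 2.92 on the resveratrol arrays, against 1.80 and 2.26 on the DMSO arrays. Its ranges overlapped, and it differed by 0.46. Of 16 sensors, adaptors and kinases upstream of interferon, 12 were tested. Of these, 6 (50%) were higher and 2 (16.7%) lower in both replicate numbers, with a median of 0.12. Sting1, the adaptor for cytosolic DNA, read 2.01 and 3.84 on the resveratrol arrays, against 1.35 and 2.91 on the DMSO arrays. Its pairs differed by 0.66 and 0.93 and its ranges overlapped. Irf5 differed by 0.94 and the adaptor Myd88 by 0.46. Of 12 negative regulators 11 were tested, with 5 (45.5%) higher, 3 (27.3%) lower and a median of 0.22. The counts of the negative regulators thus lay near the shares of all genes. The 5 include Isg20 (0.38), which is itself an interferon-induced gene. Pias1, a SUMO ligase that restrains interferon signalling, differed by -0.30. No gene of these lists was called, with or without a block.

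The list of further interferon-induced genes held 54 genes, of which 36 were tested. After resveratrol 26 of the 36 were higher in both replicate numbers, against 35.5% of all genes, and 1 lower, against 33.03%. On the higher side 15 stood apart from DMSO, against 10.2% of all genes, and the median was 0.37. The 26 and the 15 both include Oas1c. Cxcl10, the chemokine that draws activated T cells, read -2.20 and -2.20 on the resveratrol arrays, against -3.90 and -3.56 on the DMSO arrays. It differed by 1.53 (SE 0.41), with an unadjusted p of 0.00811 and a limma adjusted p of 0.0858 with the replicate block. Lgals3bp, a secreted galectin-binding protein, read 1.42 and 2.11 on the resveratrol arrays, against 0.43 and 0.55 on the DMSO arrays. The immunity-related GTPases Igtp and Irgm2 differed by 1.26 each, while Oas1c, which entered the tests through the resveratrol group alone, read -4.18 and -3.56 on the resveratrol arrays, against -5.22 and -5.05 on the DMSO arrays, 1 of them above background. In Cxcl10, Lgals3bp, Igtp and Irgm2 both resveratrol arrays stood above both DMSO arrays, and no gene of the list was called, with or without a block.

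In the Sirt1 KO comparison the same lists had medians of -0.05, -0.03, -0.10 and -0.02, in the order above, and no gene was called. Socs3, a feedback inhibitor of JAK signalling, read -1.99 and -1.45 on the Sirt1 KO arrays, against -1.43 and -0.35 on the WT arrays, a difference of -0.83 (SE 0.48) without overlap. Uba7, which activates ISG15 for transfer, differed by -0.85, and Tyk2, a JAK kinase of the interferon receptor, by 0.57. Aim2, a DNA sensor, was below background on both WT arrays and above it on 1 of 2 Sirt1 KO arrays, so no fold is given. In DMSO against WT, Ifi202b, a DNA-binding protein of the interferon-inducible p200 family, read -8.14 and -7.14 on the DMSO arrays, against -4.36 and -3.82 on the WT arrays. The DMSO arrays and 1 of 2 WT arrays were not above background, so no fold is given. The limma adjusted p of Ifi202b was 0.218, or 0.00413 with the replicate block. With the replicate block Socs3 (-1.14), Sting1 (-1.0), Traf3 (-0.54) and Ifi27l2a (-0.94) were also called lower in DMSO, as was the phosphatase gene Ptpn6 (-0.87), while Nmi (0.61) was called higher, against 5.73% of all genes lower and 5.24% higher by that block. With the slide block Ifi202b alone of the 4 lists was called.

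**Figure D5:**
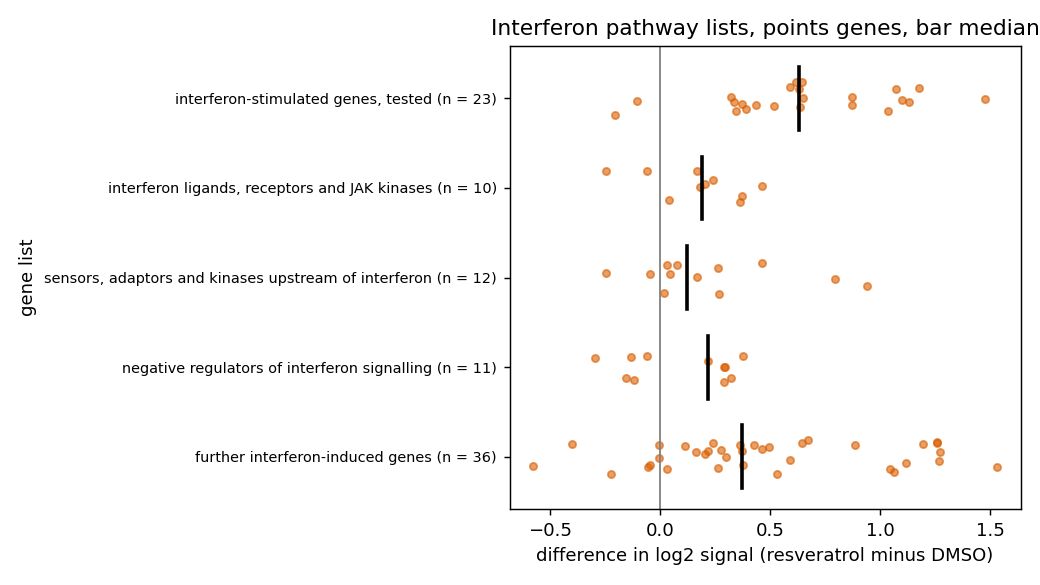
Difference in log2 signal, resveratrol minus DMSO, of each tested gene (points, spread vertically for legibility) in the 33-gene list and 4 pathway lists. Vertical bars are medians, at 0.63, 0.19, 0.12, 0.22 and 0.37 from top to bottom. The interferon-induced lists lie farthest to the right of 0.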

How the data were processed

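RNA of 8 mouse neurosphere samples was measured on 1-colour Agilent arrays, 2 in each of 4 groups given by the labels. In the deposited scanner output each spot has an intensity that was background-corrected by Agilent Feature Extraction (10.7.3.1 per the file headers, 10.7 per the submitters' processing notes). The deposited value table holds log2 values normalized by the authors in a way the sources used here do not give, and it served as an alternative. The deposited files also hold per-spot flags, which decided whether a probe was above background.

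Control spots were left out of 45018 spots. Outlier spots were left out where the probe had another spot, and otherwise kept. Processed intensities were put on a log2 scale, and the 75th percentile of each array was subtracted. Of 41174 probes, 26362 were kept because some group had them well above background on both of its arrays. Accessions were matched to RefSeq symbols for 26918 probes, and 14256 stayed unnamed. A gene was read from its brightest kept probe by mean over arrays (13332 genes). Comparisons used limma (version 3.58.1, R 4.3.3; 4 group means, intensity trend, two-sided, Benjamini-Hochberg over all genes). The normexp alternative used the median signal and an offset of 50. The test was checked on simulated data with independent noise on each array. That check does not cover the joint deviation of same-numbered arrays given below. The number of arrays limits the precision.

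Genes were given in full where the mean difference was at least 0.5 with 1 sign in both replicate numbers in any comparison (17 members). Pathway genes came from the 5 per list and comparison with the largest mean difference among those of 1 sign in both replicate numbers, and from those called. The members and lists were chosen with earlier results of these data known. Across genes, same-numbered arrays deviated together from their group means (correlation 0.716 for Sirt1 KO with WT, 0.834 for resveratrol with DMSO). The replicate number is the slide in the treatment groups, per the file headers, and the sex in the genotype groups, per the labels.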

Additional observations from a re-analysis of the deposited data

How the results depend on the processing

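With the replicate block, limma called 21 genes for Sirt1 KO minus WT, 45 for resveratrol minus DMSO, 31 for the difference of differences and 1462 for DMSO minus WT. The slide block called 134 genes for DMSO minus WT, normexp 3, and probes well above background on all arrays 4. Leaving out each array in turn gave 0 to 5 genes for Sirt1 KO minus WT, 0 to 5 for the difference of differences and 0 to 8 for DMSO minus WT. The median of the members for Sirt1 KO minus WT was 0.018 with quantile normalization, 0.012 with median centring, -0.42 with normexp, 0.017 with the deposited value table, -0.062 with no filter, 0.010 with probes above background on all arrays, 0.13 with the mean of probes, and 0.010 without Isg15, Xaf1 and Oasl1, and it ran between -0.25 and 0.35 when 1 array was left out. For the difference of differences it was 1.01 with normexp, and 0.17 to 0.71 when 1 array was left out. For DMSO minus WT it was -0.92 with normexp. For resveratrol minus DMSO it ran between 0.30 and 0.96 when 1 array was left out. Of the 28 member differences of at least 0.5 with 1 sign in both replicate numbers, some reversed under normexp. These were Ifih1 (-1.07) and Gbp2 (-0.70) in Sirt1 KO minus WT, and Ifih1 (-0.97), Isg15 (-1.28), Oasl1 (-1.24) and Gbp2 (-0.51) in DMSO minus WT. Outside these 28, members with a higher mean in Sirt1 KO also fell below WT in both pairs under normexp. Among them were Bst2, Oasl1, Dhx58, Parp9, Ifi35 and Xaf1. With normexp, WT 1 read -1.65 for Oasl1, -1.64 for Isg15, -1.63 for Usp18 and -1.62 for Ifih1. Without it, the same genes read -6.78, -5.19, -5.63 and -5.24 on WT 1. Sirt1 KO 1 with normexp read -3.38, -0.71, -3.13 and -3.08, and DMSO 1 read -3.14, -3.08, -2.59 and -2.61. These dim members thus lay close together on WT 1 under normexp, and higher than on DMSO 1. The part of this in the reversals was not tested. Isg15 was -0.23 in DMSO minus WT with the slide block. Over 28 member differences and 495 alternatives, 479 kept direction and call, 9 became called and 7 reversed, and the cause was not tested. Settings that leave out Xaf1, Isg15 and Oasl1, and the block combined with another scaling, were chosen after seeing the data. The slide block moved the median of all genes to -0.11 in Sirt1 KO minus WT. Dim probes limit what can be read for 7 members.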
